A study of Mus musculus with 18 samples.

Results

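The enzymes and the carrier that turn ammonia into urea, together with the enzymes that release and bind ammonia around the cycle, were followed across liver, epididymal white adipose tissue (eWAT) and quadriceps muscle of mice fed a high-salt diet. They are 10 of the 21899 genes in the deposited expression table, taken by name (*Nags*, *Cps1*, *Slc25a15*, *Otc*, *Ass1*, *Asl*, *Arg1*, *Gls2*, *Glud1* and *Glul*), and the question put to them was whether their RNA moved with a proposed rise of urea production under high salt. All mice were wild type C57BL/6 males of 18 weeks. The HSD group ate a diet with 8% NaCl and drank 0.9% saline for 12 weeks, and the CON group had chow and tap water over the same time. There were 18 libraries of total RNA, with 3 CON and 3 HSD mice for each tissue. Libraries are named by mouse and tissue (L for liver, W for eWAT and M for muscle). CON16 and CON72 gave all 3 tissues, CON71 gave eWAT and muscle, and CON14 gave liver, while HS2 and HS5 gave all 3 tissues, HS3 gave eWAT and muscle, and HS4 gave liver. Values are FPKM, that is, fragments scaled to the length of the gene and the total of the library, so levels can be compared between genes.

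Ammonia set free from amino acids is toxic, and the liver disposes of most of it by making urea. The cycle starts in mitochondria, where carbamoyl phosphate synthetase 1 (*Cps1*) needs N-acetylglutamate, made by *Nags*, and ends in the cytosol, where arginase (*Arg1*) splits arginine into urea and ornithine. Periportal hepatocytes carry the cycle and the liver glutaminase *Gls2*, while a rim of perivenous hepatocytes, like fat and muscle, binds ammonia into glutamine with glutamine synthetase (*Glul*).

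The fragments on listed genes numbered from 7626369 (CON14L) to 16622204 (CON72W) per library. The tissues carried their labels: the 17 hepatocyte, 8 adipocyte and 10 skeletal muscle markers each lay at 1 FPKM or more in the mean of their own CON tissue. 3 libraries stood apart from the rest of their tissue. In CON16L, skeletal muscle markers stood at a median of 7.20% of their CON muscle level, against at most 0.00985% in the other livers. In CON14L, hepatocyte markers stood at 38.6% of the CON liver mean and mitochondrially encoded genes took 60.8% of the fragments, against 15.4% to 44.4% in the other livers. HS3W held all 13 epididymal markers, with a summed level of 26386 FPKM against 1.05 to 14.2 in the other eWAT libraries, and its adipocyte markers stood at 33.4% of the CON level. The study used 15 of the libraries, without CON16L, HS5L and HS5W, and all 18 are used here.

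The genes lie apart from each other in the genome (build mm10). The mitochondrial part of the cycle is made up of *Nags* (ENSMUSG00000048217, chromosome 11, 102145513 to 102149477), *Cps1* (ENSMUSG00000025991, chromosome 1, 67123026 to 67231259), the ornithine carrier *Slc25a15* (ENSMUSG00000031482, chromosome 8, 22375551 to 22398597) and ornithine transcarbamylase *Otc* (ENSMUSG00000031173, chromosome X, 10252305 to 10321024). The cytosolic part is argininosuccinate synthetase *Ass1* (ENSMUSG00000076441, chromosome 2, 31470207 to 31520672), argininosuccinate lyase *Asl* (ENSMUSG00000025533, chromosome 5, 130011258 to 130029247) and *Arg1* (ENSMUSG00000019987, chromosome 10, 24915221 to 24927484). Ammonia is handled around the cycle by *Gls2* (ENSMUSG00000044005, chromosome 10, 128194457 to 128210004), by glutamate dehydrogenase *Glud1* (ENSMUSG00000021794, chromosome 14, 34310727 to 34345265) and by *Glul* (ENSMUSG00000026473, chromosome 1, 153899944 to 153909723).

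The 250 bases before the start of *Otc* and of *Glud1* show how unlike the starts of these genes are. They are shown because *Otc* had 15860 fragments in the CON livers and 4 in the CON muscles, while *Glud1* was abundant in all 3 tissues. Capitals mark each CpG, the bases are those of RefSeq (GRCm38.p6), and both lie on the plus strand, at chrX:10252055-10252304 and chr14:34310477-34310726.
Otc: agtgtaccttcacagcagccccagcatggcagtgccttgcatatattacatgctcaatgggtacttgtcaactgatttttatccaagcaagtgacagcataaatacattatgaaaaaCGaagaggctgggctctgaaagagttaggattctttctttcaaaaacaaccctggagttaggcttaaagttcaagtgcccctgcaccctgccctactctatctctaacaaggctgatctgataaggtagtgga
Glud1: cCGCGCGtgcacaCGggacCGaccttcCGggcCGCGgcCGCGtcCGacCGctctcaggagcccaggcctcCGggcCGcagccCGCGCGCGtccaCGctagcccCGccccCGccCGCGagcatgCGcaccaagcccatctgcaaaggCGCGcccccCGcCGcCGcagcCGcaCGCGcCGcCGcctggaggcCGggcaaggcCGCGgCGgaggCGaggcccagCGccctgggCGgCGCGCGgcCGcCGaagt
The window of *Otc* held 1 CpG (43.6% G and C) and that of *Glud1* held 46 (82% G and C), against a median of 6 over the windows of 32851 starts. Windows of 4 other members were given: *Nags* held 11 CpG, *Glul* 15, *Ass1* 23, and *Slc25a15* 11 and 43 at its 2 starts. On both strands of these 7 windows, none held the HNF4 motif CAAAGTCCA, which 0.384% of all windows held, or the cyclic AMP response element TGACGTCA (1.55%). None held the C/EBP motif TTGCNNAA (9.56%), the TGTTCT hexamer of the glucocorticoid receptor (16.1%) or the box TATAAA (12.4%). TGGAAA (the core bound by NFAT5, a factor of the response to high tonicity, 18.6%) stood once, before the upstream one of the *Slc25a15* starts. No absence or match of letters says that a factor does or does not bind.

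In the liver of CON mice, the whole pathway was present and *Arg1* and *Ass1* had the highest means. *Arg1* stood first with 649 ± 344 FPKM (SD, n = 3) and *Ass1* next with 351 ± 199. *Otc* (126 ± 50.5), *Cps1* (117 ± 20.5), *Glud1* (114 ± 24.3), *Asl* (71.5 ± 36.1), *Gls2* (69.9 ± 6.39) and *Glul* (68.1 ± 31.5) followed, and each of these overlapped its neighbour in the order. *Slc25a15* (14.6 ± 2.95) and *Nags* (10.2 ± 3.18) came last, each CON library of *Slc25a15* lying below each of *Glul*. The gene of the activator, *Nags*, thus had the lowest level of the 10.

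Outside liver, the order was turned around and glutamine synthetase led. *Glul* had 309.6 ± 86.1 FPKM in CON eWAT and 59.7 ± 8.36 in CON muscle, and *Glud1* came next with 74.8 ± 5.27 and 35.3 ± 1.38. *Glul* alone made up 76.3% of the summed FPKM of the 10 genes in eWAT and 59% in muscle, against 4.28% in liver. No library of the neighbours overlapped in these steps. *Asl*, *Ass1* and *Slc25a15* lay between 3.90 and 6.95 FPKM on average in eWAT and between 1.02 and 3.30 in muscle. *Nags* was listed at 0 in all 3 CON muscles, and *Cps1* (0 to 13 fragments) and *Otc* (0 to 4 fragments) were at the limit of detection there. A count of 0 fragments allows up to 3, which covers counting error only.

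**Figure D1:**
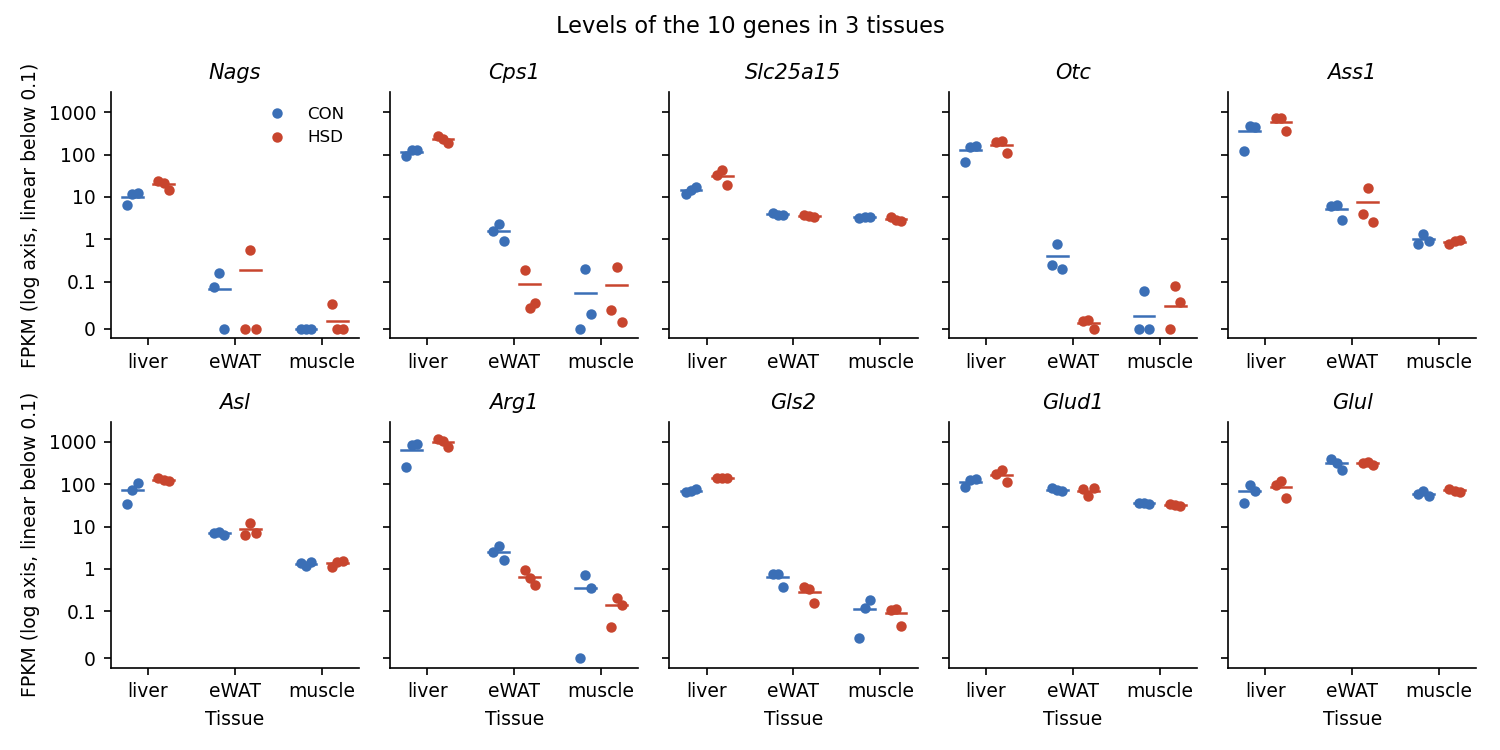
FPKM of the 10 genes in each of the 18 libraries (points) with the group mean (bars), by tissue, for CON (blue) and HSD (red); the axis is logarithmic and linear below 0.1. *Glul* is highest in eWAT, *Glud1* and *Slc25a15* are present in all 3 tissues, and the other 7 genes are highest in liver.

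Between CON liver and CON muscle, limma on log2(FPKM + 0.5) called 9 of the 10 genes, all higher in liver, at an adjusted p under 0.05 and a log2 difference of at least 1 (50.1% of all genes tested were called). On this scale the difference was widest for *Arg1* (9.46, SE 0.51, adjusted p = 6.10e-07) and *Otc* (7.82, SE 0.34, adjusted p = 1.85e-07), and narrowest for *Slc25a15* (1.97) and *Glud1* (1.65). The added 0.5 understates differences of genes near 0 in muscle. The fold of the mean FPKM was 4750 for *Otc* and 1802 for *Arg1*. *Nags* was at least 359-fold higher in liver, against a floor of 3 fragments over the CON muscles. *Glul* was not called (0.08, SE 0.39, adjusted p = 0.867), with an interval from −0.81 to 0.97, and its sign turned when CON16L, CON72L or CON72M was left out.

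Against CON eWAT, 8 of the 10 were called higher in CON liver and *Glul* was called lower, by a log2 difference of −2.26 (SE 0.39, limma adjusted p = 0.000478), where 69.4% of all genes were called. On the scale of log2(FPKM + 0.5), *Otc* differed most among the rest after *Arg1* (7.08 and 7.59). In mean FPKM the fold was larger for *Otc* (308) than for *Arg1* (257). *Glud1* differed by 0.58, under the fold required, and by 1.33 (called, adjusted p = 8.55e-05 from limma) without the mitochondrially encoded genes. The median difference of all genes was −1.36, and the position of *Glul* depended on the scaling: with median-ratio scaling it was −0.60 (adjusted p = 0.162) and *Glud1* was called higher in liver (2.23). In eWAT against muscle, 6 were called higher in eWAT (*Cps1*, *Ass1*, *Asl*, *Arg1*, *Glul* and *Glud1*; 54.9% of all genes called) around a median of 0.93 for all genes. With median-ratio scaling, 3 of them remained (*Cps1*, *Asl* and *Glul*), and *Slc25a15* turned from 0.21 to −0.66. Without the mitochondrially encoded genes, *Glud1* of eWAT against muscle was 0.91, under the fold required.

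The genes of the cycle seen at low levels in CON eWAT were set beside the RNA of hepatocytes in the same libraries. *Cps1* stood at 1.34% of its CON liver mean in CON16W, 1.96% in CON71W and 0.774% in CON72W. The median of the 17 hepatocyte markers, most of them plasma proteins secreted by liver, was 0.644%, 1.05% and 0.384% in the same libraries. *Otc* (0.157% to 0.617%), *Arg1* (0.253% to 0.524%) and *Gls2* (0.544% to 1.10%) lay within the range of single markers in the same library, except *Otc* in CON16W (0.198%, where the lowest marker was at 0.263%), while *Asl* (8.84% to 10.6%) and *Slc25a15* (25.0% to 29.4%) lay above all of them. In bulk tissue, fewer cells of a type and less RNA per cell cannot be told apart.

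In liver, each of the 10 genes had a higher mean in the HSD group than in the CON group, and no gene passed the test. limma called 0 of the 10 and 0 of 10317 genes (0%), and voom on the recovered fragments called 0 as well. An unadjusted p under 0.05 was found for 4 of the 10 (*Cps1*, *Nags*, *Slc25a15* and *Gls2*), against 592 of the 10317 genes. That count of members was 0 with the replicate number as a block, and 4 with voom and with median-ratio scaling. The median log2 fold change of the 10 was 0.95, against 0.13 for all genes tested. Each HSD liver lay above each CON liver for 5 of the 10 (*Nags*, *Cps1*, *Slc25a15*, *Asl* and *Gls2*), against 8.62% of all genes, and below for 0 of the 10, against 3.47%. Without the mitochondrially encoded genes, which took more of the CON than of the HSD libraries on average, the median was 0.59 against −0.20 for all genes, 3 of the 10 did not overlap (*Nags*, *Cps1* and *Slc25a15*) against 3.05%, and *Glul* turned to −0.015. The same 5 lay apart without CON14L and without CON16L (of all genes, 13.2% and 19.8%). That these 5 stayed apart was fixed in advance, since leaving out a library cannot make such groups overlap.

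The first step showed the difference in each library. *Cps1*, which commits ammonia to the cycle, had 93.9, 128 and 131 FPKM in CON14L, CON16L and CON72L, and 271, 235 and 192 in HS2L, HS4L and HS5L. *Nags* had 6.51, 11.5 and 12.4 in the CON and 23.9, 21.5 and 14.4 in the HSD livers, on 141 to 707 fragments. Neither gene's groups overlapped. The log2 fold changes were 0.98 for *Cps1* (SE 0.38, adjusted p = 0.764 from limma, interval 0.10 to 1.86) and 0.96 for *Nags* (SE 0.36, the same adjusted p).

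*Slc25a15*, which carries ornithine into mitochondria, had the largest fold change of the 10, 1.05 (SE 0.38, adjusted p = 0.764 from limma). It had 11.6, 14.8 and 17.5 FPKM in the CON and 33.1, 43.9 and 19.1 in the HSD livers, so HS5L stood just above CON72L. *Otc*, its partner in the mitochondrion, overlapped, with 67.8, 154 and 156 in the CON and 198, 206 and 109.5 in the HSD livers (log2 fold change 0.48, SE 0.50). For *Otc*, HS5L was below both CON16L and CON72L.

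The cytosolic genes followed the same libraries. *Ass1* had 122, 477 and 455 FPKM in the CON and 733, 717 and 358 in the HSD livers, with a log2 fold change of 0.94 (SE 0.65). *Arg1* had 253, 825 and 869.9 against 1185, 1025 and 753 (0.78, SE 0.59). In both genes CON14L was lowest and HS5L lay below CON16L and CON72L. *Asl* had 34.2, 74.1 and 106 against 140.2, 124 and 121 FPKM (0.98, SE 0.48), and its groups did not overlap.

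*Gls2*, which frees ammonia from glutamine beside the cycle, had the tightest groups of the 10 in FPKM as deposited. Its FPKM were 64.1, 68.9 and 76.8 in the CON and 140.0, 136 and 137 in the HSD livers, a log2 fold change of 0.98 (SE 0.33, adjusted p = 0.764 from limma). In a fit of all 18 libraries, which share an estimate of the spread, its adjusted p was 0.0147, at a fold just under the one required. Without the mitochondrially encoded genes its groups were no longer tight (127 ± 35.6 FPKM in CON and 191 ± 47.3 in HSD livers) and overlapped, with a fold change of 0.60.

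*Glud1*, which releases ammonia from glutamate, had 85.6, 125 and 129.7 FPKM in the CON and 174, 215 and 114 in the HSD livers (0.54, SE 0.42). *Glul* differed least, with 35.3, 98.1 and 70.9 against 95.2, 116 and 46.8 FPKM (0.36, SE 0.53), and its fold change was −0.05 without CON14L. Both genes overlapped between the groups. Ratios within a library do not depend on its total. *Gls2* over *Glul*, which sets the release of ammonia against its binding, was 1.20 ± 0.567 in CON and 1.85 ± 0.935 in HSD livers (exact permutation p = 0.4, 2-sided, n = 3 per group, where 0.1 is the smallest p possible). *Cps1* over *Otc* was 1.02 ± 0.319 and 1.42 ± 0.308 (exact permutation p = 0.3).

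**Figure D2:**
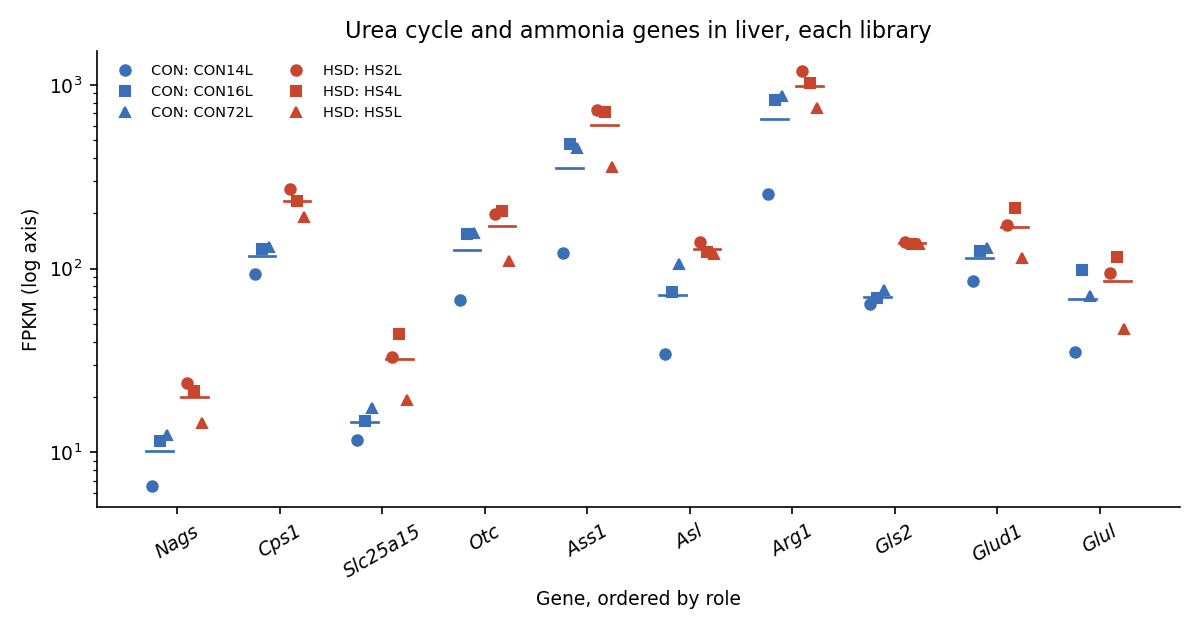
FPKM of the 10 genes in the 6 liver libraries on a log axis, CON in blue and HSD in red, with 1 symbol for each library and a bar for each group mean. *Nags*, *Cps1*, *Slc25a15*, *Asl* and *Gls2* have every red symbol above every blue one, and in the other 5 genes HS5L falls among the CON libraries.

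The libraries HS5L and CON14L, which had the largest mitochondrial shares (44.4% and 60.8%), were the lowest of their groups for most of these genes. Without HS5L, 9 of the 10 genes did not overlap, all except *Glul*, against 30.3% of all genes. In the study's libraries alone (CON14L and CON72L against HS2L and HS4L), all 10 did not overlap, against 45.3% of all genes, and none was called. The hepatocyte markers were higher too: 16 of 17 had a higher mean in HSD livers, with a median log2 fold change of 0.83 (0.46 without the mitochondrially encoded genes). Each HSD liver lay above each CON liver for 1 of the 17, against 8.62% of all genes. The summed level of these markers was 19131 to 89186 FPKM in CON and 44113 to 97144 in HSD livers. Macrophage markers were lower (7 of 8 tested, median −0.75, summed level 40.4 to 62.0 in CON and 21.6 to 34.6 in HSD). The part of hepatocyte content, of other cells and of the mitochondrial share in the liver result was not tested.

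**Figure D3:**
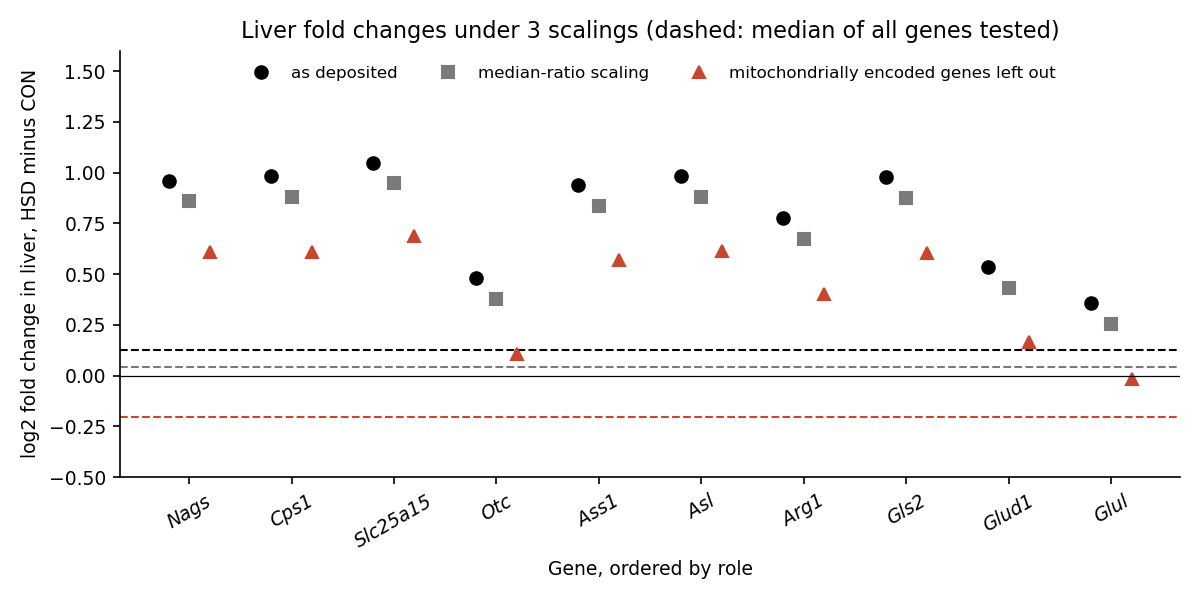
log2 fold change (HSD minus CON) of the 10 genes in liver for FPKM as deposited, after median-ratio scaling and with mitochondrially encoded genes left out, with the median of all genes tested under each as a dashed line. The points of every gene are lowest with the mitochondrially encoded genes left out, as is the median of all genes (0.13, 0.04 and −0.20), and *Glul* is then at −0.015.

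Of the genes that feed or drain the cycle, 21 of 29 were tested in liver and 0 passed, with a median log2 fold change of 0.33 and 7 whose HSD livers all lay above the CON livers (8.62% of all genes). Without the mitochondrially encoded genes this median turned to −0.05, with 10 of the 21 above 0 in place of 14. The glutamine carrier *Slc38a3*, the most abundant of them, had 249 ± 44.5 FPKM in CON and 208 ± 95.2 in HSD livers (−0.34). *Slc38a4*, another carrier of neutral amino acids, had 109 ± 39.4 and 226 ± 67.6 (1.08, SE 0.47). Ornithine aminotransferase *Oat* (0.88) and *Agmat* (0.72) completed the 4 most abundant, and of this pair *Agmat* alone did not overlap. For amino acid catabolism, 30 of 30 genes were tested, with a median of 0.77 (0.40 without the mitochondrially encoded genes), with 16 that did not overlap, against 8.62% of all genes, and 0 called. The most abundant were *Hpd* (481 ± 125 and 803 ± 46.9 FPKM) and *Tat* (408 ± 59.9 and 722 ± 173), both of tyrosine breakdown, and *Mat1a* and *Ahcy* of the methionine cycle. All 4 had HSD livers above CON livers.

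The zones of the lobule differed in their medians. In liver, the median fold change of the 8 periportal genes was 1.00 on the log2 scale, and *Pck1* was the most abundant (933 ± 129 and 2009 ± 180 FPKM, 1.11). For 4 of the 8, each HSD liver lay above each CON liver, against 8.62% of all genes. The periportal median was 0.63 without the mitochondrially encoded genes. The 8 perivenous genes tested had 0.22, which turned to −0.15 without those genes (3 of 8 above 0 in place of 6). For 1 of them each HSD liver lay above each CON liver (8.62% of all genes), and the most abundant, *Cyp2e1*, spread widely (528 ± 311 and 1395 ± 941). None was called, and whether the zones differ was not tested. Of 10 regulators of these pathways, 3 lay above (8.62% of all genes), *Cebpa* (84.5 ± 5.04 and 143 ± 55.0), *Hnf4a* (70.1 ± 7.24 and 123 ± 8.64) and *Klf15* (45.9 ± 7.34 and 86.1 ± 11.1 FPKM), while the glucagon receptor *Gcgr* had 215 ± 78.1 and 212 ± 117. The median of the 10 was 0.19, and −0.16 without the mitochondrially encoded genes (3 of 10 above 0 in place of 7).

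In eWAT, *Cps1*, *Otc*, *Arg1* and, by a narrow margin, *Gls2* had lower values in every HSD than in every CON library. These genes were present there at low levels, and the abundant *Glul* and *Glud1* overlapped. limma called 0 of the 7 genes tested and 0 of 13740 in all (0%), voom called 0 as well, and 2 of the 7, *Cps1* and *Arg1*, had an unadjusted p under 0.05 against 2298 of all genes. Each HSD library lay below each CON library for these 2 of the 7, against 12.4% of all genes, and above for 0 of the 7, against 16.2%. *Cps1* passed the filter of 0.5 FPKM only through the CON group (HSD mean 0.0945), while the HSD mean of *Arg1* was 0.651. *Otc*, *Gls2* and *Nags* did not pass the filter.

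*Cps1* had 1.57, 2.30 and 0.909 FPKM in CON16W, CON71W and CON72W, and 0.185, 0.0439 and 0.0550 in HS2W, HS3W and HS5W, on 140, 194 and 84 against 14, 3 and 4 fragments. The log2 fold change was −1.77 on the scale of log2(FPKM + 0.5), which understates changes at low levels (SE 0.34, adjusted p = 0.127 from limma), and pooled fragments, relative to library totals, were 16.2-fold fewer (10.5 to 26.5, counting error only). With a pseudocount of 0.1 the fold change was −3.11, and with voom −4.09, neither called. Without HS3W the gene was called (−1.71, adjusted p = 0.0440), and likewise in the fit of all 18 libraries (adjusted p = 0.00234). *Arg1* had 2.52, 3.41 and 1.65 against 0.921, 0.620 and 0.412 FPKM (−1.37, SE 0.29, adjusted p = 0.148 from limma). *Otc* had 17, 50 and 14 fragments in the CON and 1, 1 and 0 in the HSD libraries, pooled 33.1-fold fewer with an interval of 8.86 to 278. *Gls2* had 0.772, 0.760 and 0.381 against 0.380, 0.328 and 0.154 FPKM, so HS2W lay just under CON72W, and pooled fragments were 2.20-fold fewer (1.51 to 3.26).

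The hepatocyte markers were lower in the same libraries. All 17 had each HSD library below each CON library, 0 of them called, with a median log2 fold change of −2.46, a summed level of 162 to 427 FPKM in CON and 16.6 to 37.1 in HSD eWAT, and 0 to 3 of the 17 at 0 in a library. *Cps1* stood at 0.157%, 0.0374% and 0.0468% of its CON liver mean in HS2W, HS3W and HS5W, and the marker median at 0.0485%, 0.0244% and 0.0259%. Macrophages can express *Arg1*, and all 10 macrophage markers had lower HSD means (median −0.80, summed level 593 to 883 FPKM in CON and 260.1 to 559 in HSD). Genes of alternatively activated macrophages, which are known for *Arg1*, summed to 476 to 770.3 FPKM in CON and 131 to 421 in HSD eWAT. The part of liver RNA and of macrophages in the eWAT result was not tested.

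**Figure D4:**
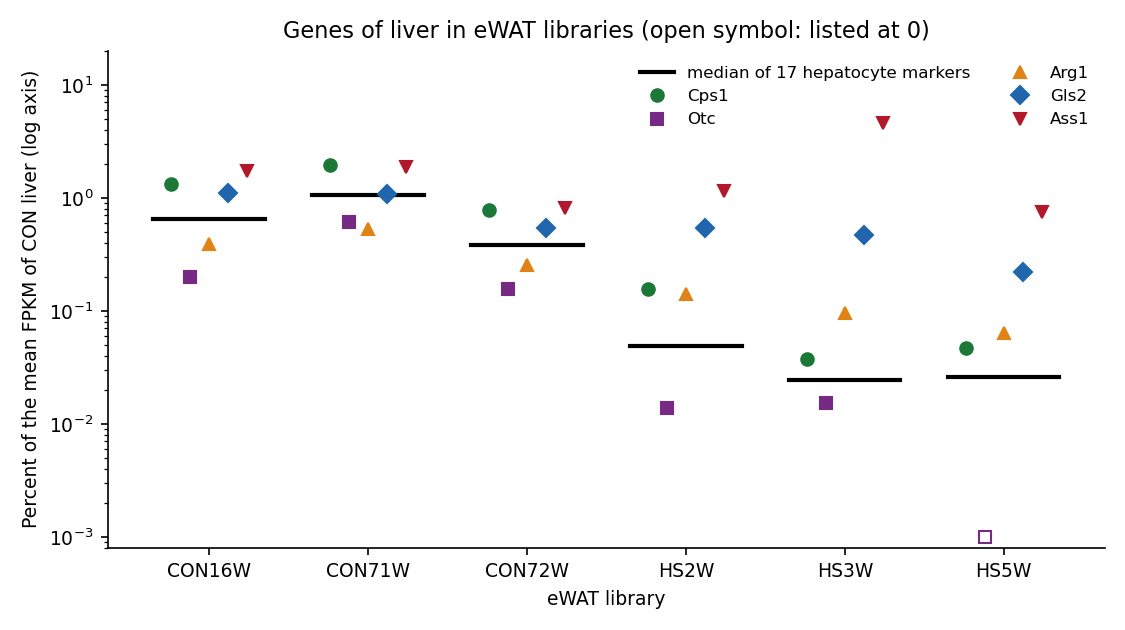
Level of *Cps1*, *Otc*, *Arg1*, *Gls2* and *Ass1* in each eWAT library as a percent of the mean FPKM of CON liver, on a log axis, with the median of 17 hepatocyte markers as a black bar; an open symbol at the foot is a gene listed at 0. The bar lies between 0.384% and 1.05% in CON and between 0.0244% and 0.0485% in HSD libraries. *Cps1*, *Otc* and *Arg1* are also lower in HSD libraries, as is *Gls2* with HS2W just under CON72W, and *Ass1* overlaps.

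*Ass1* and *Asl*, which also feed arginine to nitric oxide synthesis in many cells, overlapped in eWAT. *Ass1* had 6.12, 6.53 and 2.86 FPKM in the CON and 4.01, 16.1 and 2.63 in the HSD libraries (0.19, SE 0.67). *Asl* had 6.92, 7.61 and 6.32 against 6.48, 12.3 and 7.17 (0.25, SE 0.24). The high value of each was that of HS3W, the library with epididymal transcripts, and without it both fold changes turned, to −0.52 and −0.02. *Nags* had its only sizeable count outside liver in HS3W as well (20 fragments, against 0 to 7 in the other eWAT libraries).

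*Glul*, the main gene of ammonia binding in fat, had 389, 321 and 218 FPKM in the CON and 318, 334 and 289.9 in the HSD libraries. Its log2 fold change was 0.06 (SE 0.24, adjusted p = 0.902 from limma, interval −0.53 to 0.65), and the HSD values lay within the CON range. *Glud1* had 80.4, 74.2 and 69.9 against 78.7, 53.0 and 80.7 (−0.10, SE 0.19), the low value being that of HS3W, and *Slc25a15* had 3.66 to 4.30 against 3.30 to 3.76 (−0.13, SE 0.11). Of the cycle's partners, 24 were tested in eWAT and 0 passed. *Oat* had 90.4 ± 5.53 and 87.9 ± 2.87 FPKM, while the alanine aminotransferases *Gpt* (76.2 ± 8.20 and 30.2 ± 14.9) and *Gpt2* (64.6 ± 3.99 and 43.3 ± 12.2) had each HSD library below each CON library. *Slc38a5* had 1.87 ± 2.25 and 117 ± 198, with overlapping groups, and stood among the 4 highest means over all eWAT libraries only through 1 HSD library at 346 FPKM. Of amino acid catabolism, 22 genes were tested in eWAT, with a median of −0.25 and 8 whose HSD libraries all lay below (12.4% of all genes), among them the abundant *Gstz1* (169 ± 18.1 and 98.1 ± 43.1 FPKM) and *Gcsh* (51.7 ± 2.02 and 40.4 ± 2.17), and 0 were called.

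In muscle, limma called 0 of the 5 genes tested and 35 of 10834 in all (0.323%). None of the 5 had an unadjusted p under 0.05 (1 did with the replicate number as a block), none had HSD libraries all above (6.72% of all genes) or all below (15.6%) the CON libraries, and voom called 0 of the 5. *Glul* was the most abundant, with 58.9, 68.4 and 51.8 FPKM in CON16M, CON71M and CON72M and 78.2, 70.8 and 64.6 in HS2M, HS3M and HS5M (0.26, SE 0.14, adjusted p = 0.392 from limma, interval −0.05 to 0.57). Only HS5M lay within the CON range. With the replicate number as a block, the adjusted p of *Glul* was 0.206 from limma, and its HSD value was the higher in 3 of 3 pairs. The block pairs the muscles in the order given, and no label says that these mice were paired. *Glud1* had 35.4, 36.6 and 33.8 against 34.7, 31.8 and 31.0 (−0.12, SE 0.11). *Slc25a15* (−0.14, SE 0.12), *Ass1* (−0.13, SE 0.17) and *Asl* (0.00, SE 0.14) overlapped as well, and the other 5 genes had at most 19 fragments in any muscle library.

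Among the cycle's partners, 16 were tested in muscle and 1 was called. *Slc38a2*, a carrier that takes up glutamine and other small amino acids, had 17.3 ± 0.989 FPKM in CON and 41.6 ± 8.58 in HSD muscle, a rise of 1.23 on the log2 scale (SE 0.16, adjusted p = 0.0157 from limma), higher in each HSD than in each CON library. The 4 most abundant partners did not pass: *Got1* (147 ± 9.60 and 104 ± 12.5 FPKM, each HSD library below), *Oat* (113 ± 3.93 and 131 ± 16.5, each above), *Slc25a12* (69.9 ± 5.25 and 60.4 ± 5.60) and *Got2* (67.0 ± 1.62 and 57.9 ± 3.31, each below). The marker genes *Myh1* (−1.01, adjusted p = 0.0452), *Myh2* (−1.06, adjusted p = 0.0394) and *C1qa* (−1.07, adjusted p = 0.0213 from limma) fell, the first pair being heavy chains of fast fibres and the last a macrophage gene. The other 8 of the 10 skeletal muscle markers had positive fold changes, with a list median of 0.17. With median-ratio scaling *Slc38a2* was still called, while *Myh1* (−0.93, adjusted p = 0.0744) and *Myh2* (−0.97, adjusted p = 0.0613) were not, and *C1qa* (−0.98, adjusted p = 0.0354 from limma) missed the fold required. All 4 were called with voom and with the replicate block.

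**Figure D5:**
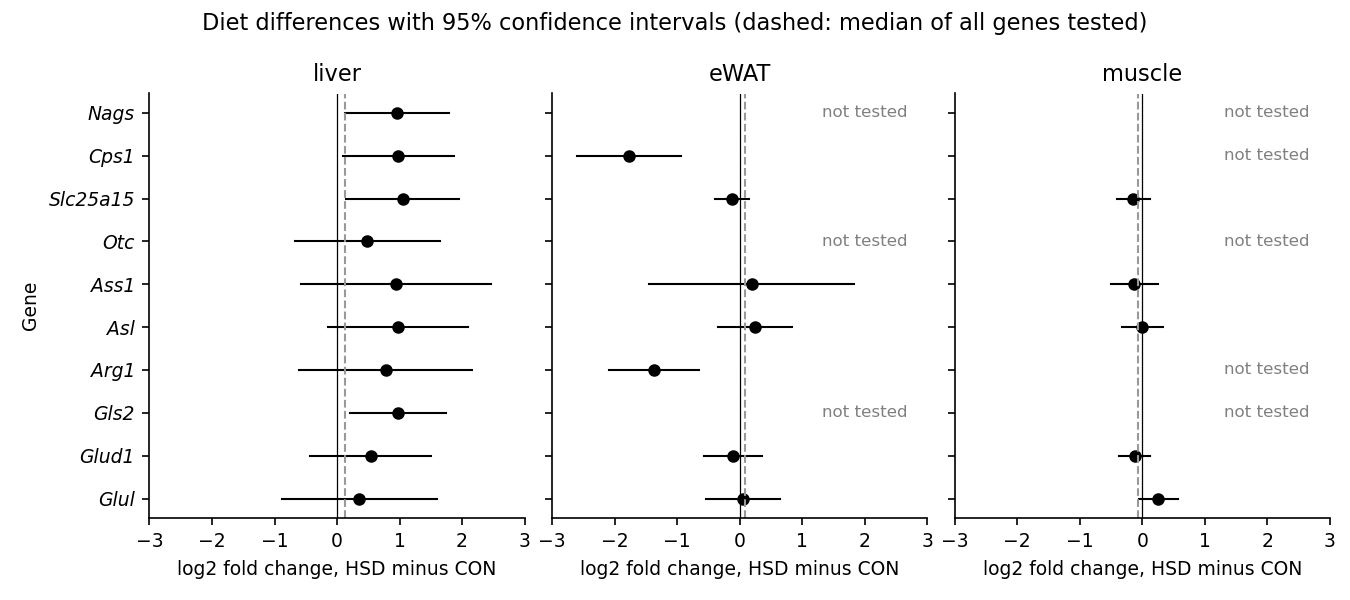
log2 fold change (HSD minus CON) of the 10 genes in liver, eWAT and muscle, as points with the 95% confidence interval of limma, with the median of all genes tested as a dashed line. All 10 points are above 0 in liver, and 4 of the 7 genes tested in eWAT are below 0, *Cps1* and *Arg1* the furthest. The 5 genes tested in muscle lie between −0.14 and 0.26.

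The difference between tissues was tested in a fit of all 18 libraries. The diet effect of liver exceeded that of eWAT for *Cps1*, by 2.75 on the log2 scale (SE 0.34, adjusted p = 0.00265 from limma), and for *Gls2*, by 1.50 (SE 0.22, adjusted p = 0.00534), which makes 2 of the 10 against 0.758% of all genes. Both differences joined a higher HSD mean in liver to a lower one in eWAT, where the fragments of these genes were few. The fit takes 1 spread per gene from all 3 tissues. Muscle is included, where *Cps1* had 0 to 16 and *Gls2* 2 to 7 fragments per library. The SE of both thus rest in part on libraries where these genes were near 0. *Gls2* was not called without the mitochondrially encoded genes (1.14, adjusted p = 0.194), nor with CON14L, CON16L and HS3W all left out (1.40, adjusted p = 0.0586), while *Cps1* was called in both. Without HS5L, 5 members were called (*Otc*, *Arg1* and *Slc25a15* besides), and the share of all genes called there was not computed. Between liver and muscle 0 of the 10 were called (0.0612% of all genes), the lowest adjusted p being that of *Gls2* (1.02, adjusted p = 0.177), and between eWAT and muscle 0 of the 10 (0%), the lowest being that of *Cps1* (−1.81, adjusted p = 0.111), all from limma. At an unadjusted p under 0.05, these contrasts had 1039 and 1045 of 13067 genes.

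Across all 18 libraries, the genes most like each member in log2(FPKM + 0.5) were given by Pearson's r. The highest r was 0.999 for *Cps1* with *Ugt2b36*, 0.999 for *Otc* with *Cyp2a12*, 0.998 for *Arg1* with *Cyp2d26*, 0.999 for *Gls2* with *Klkb1*, 0.997 for *Nags* with *Gjb2*, 0.996 for *Ass1* with *Cfi*, 0.993 for *Asl* with *Adtrp* and 0.991 for *Slc25a15* with *Gdf2*. *Glul* and *Glud1*, which all 3 tissues express, were nearest to *Anxa4* (0.977) and *Sdc2* (0.984). Within the 6 livers, *Cps1* was nearest to *Ogfod2* (0.997) and *Glul* to *Tubb5* (0.998), over 10316 genes compared. Libraries differ in tissue, depth and mitochondrial share, which all genes of a library have in common, and these values are a description.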

How the data were processed

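Total RNA of 18 tissue samples was sequenced. Per the methods of the study, reads trimmed with cutadapt 1.9.3 went through hisat2 2.0.4 (mm10), and the authors deposited FPKM from cuffdiff; the submitters' processing notes also name HTSeq 0.9.1 and mm9. The kit keeps strand, and whether counting used it is not given in the sources used here. In 18817 genes FPKM matched whole fragments within 0.02, for 18330 at the GENCODE M21 exon length, which gave fragments and totals. *Glul* matched at 3782 bases (3323 annotated).

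limma 3.58.1 (R 4.3.3) was applied to log2(FPKM + 0.5) of genes averaging at least 0.5 FPKM in the fitted libraries. Calls needed a Benjamini-Hochberg adjusted p under 0.05 over all genes tested together with a log2 difference of 1 or more in size, 2-sided. Each tissue was fitted alone, CON tissues in 1 fit of 9 libraries, and differences between tissues over all 18. Intervals are at 95%, and those on fragments cover counting error only. Ratios of 2 genes had an exact permutation test. The study's DESeq2 needs counts and was not run. The scripts were tested on simulated data. P-values of diet within a tissue measure the spread between different mice, and the labels name no batch. The fits over several tissues took libraries of the same mouse as independent. With the mouse as a random block, the diet effect of liver exceeded that of eWAT by 2.74 for *Cps1* and 1.50 for *Gls2* (adjusted p = 0.00239 and 0.00490 from limma). Alternatives were other pseudocounts, filters and scalings, voom on recovered fragments, blocks, and leaving out libraries.

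The 10 genes, the lists and the alternatives were chosen with earlier results of these data known. Named besides the members are list genes that were called, up to 4 of the most abundant list genes in a tissue, and the gene most like each member. Deviations of libraries with the same replicate number correlated at 0.383, 0.177 and 0.184 in muscle. In eWAT, where the same mice share these numbers, they correlated at −0.197, 0.061 and 0.414, and in liver at least 1 number fell below 0.1. No label pairs a CON with an HSD mouse, so the replicate block is an alternative only. Tables were made in Python 3.11.15 with pandas 2.3.3, scipy 1.17.1 and numpy 2.4.6, figures with matplotlib 3.10.9.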

Additional observations from a re-analysis of the deposited data

Results flagged for a closer look

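The diet effect (HSD minus CON, log2) of *Cps1* was 0.98 in liver and −1.77 in eWAT, a difference of 2.75 (adjusted p = 0.00265 from limma), with each HSD library above each CON library in liver and below in eWAT. For *Gls2* it was 0.98 and −0.52, a difference of 1.50 (adjusted p = 0.00534 from limma), with HS2W and CON72W nearly level in eWAT. In eWAT these genes had 3 to 194 and 7 to 43 fragments per library. The spread in this fit came from all 3 tissues, muscle included, where both genes were near 0. Hepatocyte markers moved with *Cps1* there (all 17 lower), and their part in the difference was not tested. Groups of 3 libraries are too small to look for single outlying values.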

How the results depend on the processing

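The counts of members called for diet in liver and muscle were 0 under every alternative run. In eWAT, 1 (*Cps1*) was called in the fit of all 18 libraries, and 0 to 1 with a library left out (1 without HS3W). With median-ratio scaling, 3 genes were called between CON eWAT and CON muscle, against 6, and *Slc25a15* turned to −0.66. The count whose diet effect differs between tissues was 1 without mitochondrially encoded genes, 1 with CON14L, CON16L and HS3W left out, 6 in the study's libraries and 2 to 5 with a library left out (5 without HS5L). The share of all genes called for this difference was not computed under these settings, so the counts have no background beside them. Members with each HSD liver above each CON liver numbered 5 (8.62% of all genes), against 3 without mitochondrially encoded genes (3.05%). They numbered 10 in the study's libraries (45.3% of all genes). With a library left out they numbered 5 to 9 (9.83% to 30.3% of all genes), with 9 without HS5L. These counts of libraries that do not overlap, and the setting without those 3 libraries, were chosen after seeing the data. Leaving out a library cannot make groups that lie apart overlap, so these settings do not test the separation. Each HSD eWAT library lay below each CON eWAT library for 2 to 3 members with a library left out. The share of all genes was then 14.5% to 20.5%.

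In liver, *Glul* was −0.015 without mitochondrially encoded genes and between −0.054 (without CON14L) and 0.74 with a library left out, and the other 9 genes kept their sign in all 15 alternatives. In eWAT, *Glul* was −0.0068 with median-ratio scaling. With a library left out there, *Glul* ran from −0.17 (without CON72W) to 0.24, *Ass1* from −0.52 (without HS3W; −0.15 without CON72W) to 0.68, and, both turning without HS3W, *Asl* from −0.023 to 0.42 and *Glud1* from −0.21 to 0.092. In muscle, *Asl*, at 0.00, was −0.0011 with a pseudocount of 0.1, −0.016 without mitochondrially encoded genes and −0.00697 with voom, and ran from −0.061 to 0.11 with a library left out, and *Ass1* from −0.24 to 0.027 (without CON71M). *Glul* of CON liver against CON muscle ran from −0.24 (without CON16L) to 0.49.

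With the replicate number as a block (the replicate block), 0 members were called for diet in each tissue, and 9, 9 and 6 between the CON tissues, as without it. In muscle, the block raised the calls over all genes from 35 to 54, and voom without it called 64. Low depth limits *Cps1*, *Otc*, *Nags*, *Gls2* and *Arg1* in eWAT and muscle, with 0 to 194 fragments. The liver fold changes rest on libraries with mitochondrial shares from 15.4% to 60.8%.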
